A study of Mus musculus with 12 samples.

Results

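Iron uptake, storage and transport were followed through 8 genes: Tfrc, Trf, Fth1, Cp, Hmox1, Aco1, Ireb2 and Hfe. Every probe set that the array annotation gives to one of these symbols was taken, 19 of the 22690 probe sets on the array, and 3 transferrin receptor control probe sets of the manufacturer were read beside them. Of the 8 genes, 7 had a probe set of their own. Trf was measured only by a probe set annotated to both Trf and Srprb, a subunit gene of the signal recognition particle receptor, so its values are given as those of the Trf/Srprb probe set.

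Most cells take up iron by binding transferrin, the iron carrier encoded by Trf, to the transferrin receptor encoded by Tfrc, and Hfe encodes a membrane protein that binds the same receptor. Iron that is not used is stored in ferritin, whose heavy chain is encoded by Fth1, and ceruloplasmin, encoded by Cp, is a copper-containing oxidase that helps iron leave cells. Haem oxygenase 1, encoded by Hmox1, releases iron from haem. The iron regulatory proteins encoded by Aco1 and Ireb2 bind transcripts when iron is scarce, which stabilises the Tfrc transcript and blocks ferritin translation. Transferrin, ceruloplasmin and lactoferrin are also secreted by mammary epithelium.

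The samples were mammary tumours of female FVB mice, all carrying an MMTV-c-myc transgene, in which the mouse mammary tumour virus promoter drives c-Myc mainly in mammary epithelium. In the MMTV-c-myc/Hunk KO group (6 arrays) a 1.1 kb stretch with the putative promoter and the first exon of Hunk, a protein kinase gene, had been exchanged for a neomycin resistance cassette between LoxP sites. The MMTV-c-myc/Hunk WT group (6 arrays) carried the same transgene with intact Hunk. The females had been mated and were sacrificed with tumours of at most 20 mm in diameter; no age is given in the sources used here. Nothing in the labels says whether the numbered arrays are separate tumours or separate mice, so p-values measure only the spread between these samples, which may be technical. These were bulk tumours, in which fewer cells of a type and less RNA per cell cannot be told apart.

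Array medians ranged over 3.87 to 4.10 on the log2 scale, and precision is limited by there being 6 arrays a group. The Hunk probe set averaged 2.95 ± 0.17 in the knockout and 4.21 ± 1.05 in the wild type (SD, n = 6 each). It was at background on all 6 knockout arrays and on 2 wild-type arrays, and the groups overlapped. Its limma adjusted p in the fit over all probe sets was 0.209. Where its probes lie against the deleted stretch was not checked. For beta-actin, a sign of RNA quality, the 3' control signal minus the 5' control signal was 1.51 ± 0.15 in the knockout and 1.29 ± 0.05 in the wild type (SD, n = 6 each; exact two-sided permutation p = 0.0108). For Gapdh the same difference was 0.20 ± 0.08 in the knockout and 0.09 ± 0.08 in the wild type (SD, n = 6 each, exact two-sided permutation p = 0.0455). Knockout arrays 4 and 5 were the closest pair of the 12, with an SD of 0.338 between their tested probe sets against 0.531 for the next pair. The 9 tested genes of a milk and alveolar list gave 0 calls, but the list mean split the knockout arrays, at 4.64 to 5.06 on arrays 1, 4 and 5 and 9.62 to 10.46 on arrays 2, 3 and 6, against 4.42 to 7.82 in the wild type. Wild-type arrays 2 and 3 also stood apart, with list means of 7.82 and 7.53. Csn2, a casein gene, measured 12.85 and 12.48 on them and 2.21 to 2.25 on the other wild-type arrays. Of 14 tested cell division genes 5 fell in the knockout, Cdc20, the most abundant, among them, where 1.45% of all tested genes were called lower. In the luminal list 2 of 7 tested genes rose, Krt19 and Cd24a, where 1.35% of all were called higher, and 1 rose after median centring. The list went both ways, with 4 positive and 3 negative changes. Krt18, its most abundant gene, had a change of -0.17 and Kit one of -2.95 (limma adjusted p = 0.801 and 0.0908). With the beta-actin signal difference as a covariate 0 of the 7 cell division and luminal calls held. On 5 of the 6 knockout arrays that difference lay above every wild-type array. Covariate and genotype are thus largely confounded, so calls lost or signs turned in that fit, here and below, cannot be assigned to either. An array's background was taken as its highest Bacillus control probe set, 3.71 ± 0.15 in the knockout and 3.60 ± 0.10 in the wild type (SD, n = 6 each).

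None of the 8 iron genes passed the test between knockout and wild-type tumours. The largest difference was that of the Trf/Srprb probe set, which averaged 2.87 log2 units below the wild type in the knockout. Cp probe sets averaged above the wild type and Tfrc probe sets below it, with arrays of both groups overlapping. The log2 changes of Fth1, Hmox1, Aco1 and Ireb2 lay between -0.33 and 0.45.

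Of the 19 probe sets, 16 had a mean over the 12 arrays above the median probe-set mean of 3.98 and were tested, and 3 (1 of Cp and both of Hfe) were at background on all arrays. With limma and Benjamini-Hochberg adjustment over 11313 probe sets, 0 of the 16 passed the threshold of 0.05, where 2.46% of all tested probe sets did. Their adjusted p-values ran from 0.0717 to 0.846, and 2 of the 16 (12.5%) had an unadjusted p under 0.05, against 19.1% of all tested probe sets. The groups overlapped in all 16, whereas 2.87% of tested probe sets had no overlap. Without the expression filter 0 of the 19 passed, against 0.672% of all probe sets. The median size of the log2 change was 0.76 over the 16 and 0.20 over all tested probe sets, and the median signed change was 0.00 over the 16 and 0.01 over all. Several probe sets read the same transcript, so the 16 are not independent.

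**Figure D1:**
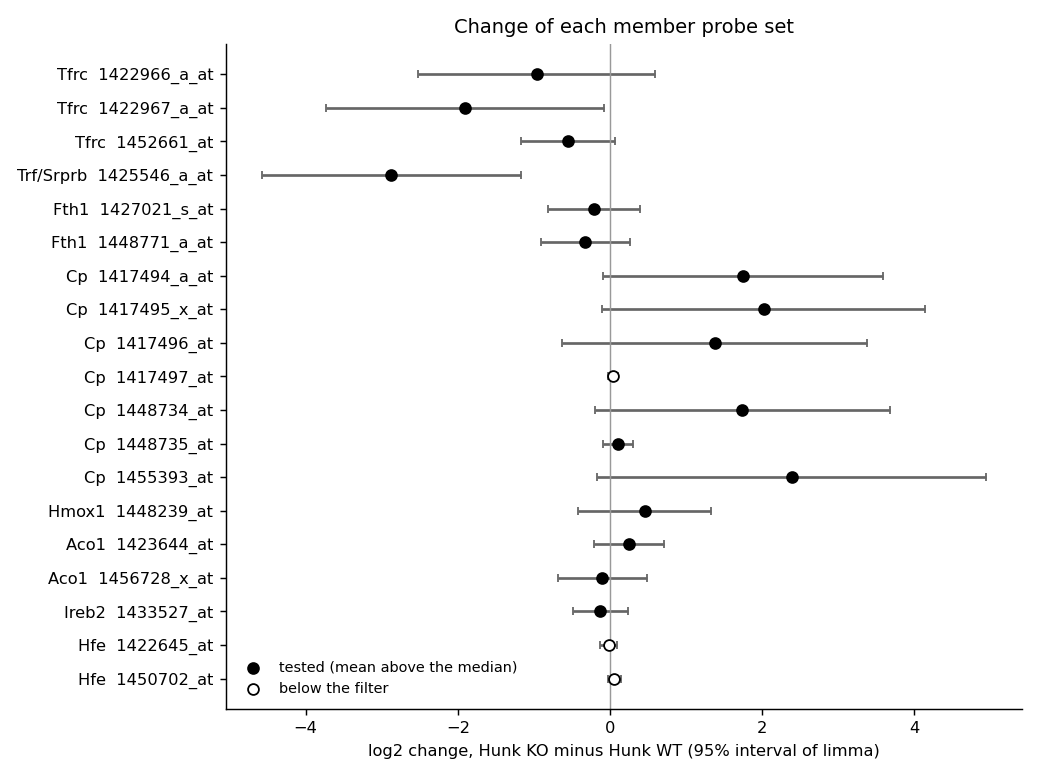
Log2 change (knockout minus wild type, x axis) of each of the 19 member probe sets with its 95% interval from limma; filled points were tested and open points lay below the expression filter. The interval lies below 0 for the Trf/Srprb probe set and for the Tfrc probe set 1422967_a_at and includes 0 for the others, before adjustment over all probe sets.

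Uptake was read first. Tfrc encodes the receptor that brings transferrin-bound iron into cells and is high in dividing cells. RefSeq (GRCm38.p6) lists 2 starts on the plus strand of chromosome 16, and the 250 bases before the first, with 30 bases around it, are shown because the 6 transferrin receptor probe sets moved together over the arrays. Capitals mark a match to ACGTG, the core that hypoxia-inducible factors bind, which begins in the last 2 bases of the upstream stretch.
Tfrc upstream, chr16:32608646-32608895: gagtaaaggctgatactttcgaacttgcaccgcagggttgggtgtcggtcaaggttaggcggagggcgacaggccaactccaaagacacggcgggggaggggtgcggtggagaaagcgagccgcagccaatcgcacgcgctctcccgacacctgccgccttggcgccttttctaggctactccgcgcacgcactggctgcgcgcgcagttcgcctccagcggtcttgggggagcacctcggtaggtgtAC
Tfrc site, chr16:32608882-32608911: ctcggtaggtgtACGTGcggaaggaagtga
The windows from 250 bases before to 50 after each listed start were searched on both strands for CACGTG, the E-box that Myc binds, for ACGTG, which also lies inside CACGTG, for TTCNNNGAA, bound by STAT factors, and for GGGCGG, the GC box. Across the 32851 RefSeq windows, 7.15% held CACGTG, 19.6% ACGTG, 8.3% TTCNNNGAA and 35.7% GGGCGG. Of the 9 windows of the 6 members found there, none held CACGTG or TTCNNNGAA, and ACGTG was found in Tfrc alone, at 1 site that lies in both of its overlapping windows. A GC box was found in one window each of Tfrc, Fth1, Aco1 and Ireb2. A match is a description of these letters and not a binding site.

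At its brightest probe set, 1452661_at, Tfrc measured 11.91, 12.15, 11.42, 11.50, 11.56 and 10.36 on knockout arrays 1 to 6 and 11.56, 12.64, 12.46, 12.12, 11.56 and 11.87 on wild-type arrays 1 to 6. Knockout array 6 was the lowest of all 12 and wild-type array 2 the highest, and 3 knockout arrays lay below the lowest wild-type array. The mean was 11.48 ± 0.61 in the knockout and 12.03 ± 0.46 in the wild type (SD, n = 6 each), a log2 change of -0.55 (SE 0.29, 95% interval -1.17 to 0.07, limma adjusted p = 0.309). Without knockout array 6 the change was -0.33 (limma adjusted p = 0.443).

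The other Tfrc probe sets had larger differences and a wider spread. Probe set 1422967_a_at measured a lowest, median and highest value of 3.05, 3.98 and 7.29 in the knockout, with 3 arrays at background, against 4.21, 7.09 and 8.04 in the wild type. Its change was -1.91 (SE 0.84, 95% interval -3.74 to -0.08, limma adjusted p = 0.243), and its size rests in part on the background. With the 3' minus 5' signal of beta-actin as a covariate it was -0.22 (limma adjusted p = 0.969). For 1422966_a_at the means were 7.27 ± 1.60 in the knockout and 8.23 ± 1.11 in the wild type (SD, n = 6 each), with a change of -0.97 (SE 0.72, limma adjusted p = 0.459); it was -0.46 without knockout array 6 and -0.13 with the beta-actin covariate (limma adjusted p = 0.982).

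The control probe sets for the transferrin receptor sit at the 3' end, the middle and the 5' end of the transcript, and were kept out of the limma fit. The 3' set averaged 6.99 ± 1.16 in the knockout and 7.80 ± 0.67 in the wild type, a difference of -0.81 (SD, n = 6 each; exact two-sided permutation p = 0.167). The middle set averaged 5.12 ± 0.82 in the knockout and 5.82 ± 0.71 in the wild type, a difference of -0.70 (SD, n = 6 each; exact permutation p = 0.156). The 5' set averaged 5.69 ± 1.01 in the knockout and 6.53 ± 0.99 in the wild type, a difference of -0.83 (SD, n = 6 each; exact permutation p = 0.186). All 3 differences were negative and none passed a threshold of 0.05, with adjusted p = 0.248 for each over the 4 exact tests. The 3' minus 5' difference, which reads the integrity of this transcript, was 1.30 ± 0.37 in the knockout and 1.28 ± 0.45 in the wild type (SD, n = 6 each; exact permutation p = 0.931). The groups overlapped in that difference, and its sign turned when knockout arrays 4 and 5 were averaged. The smallest p that 6 against 6 can give is 0.00216.

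The 6 probe sets went together over the arrays without giving the same order. Their 15 pairwise correlations over the 12 arrays ran from 0.840 to 0.986 (Spearman 0.846 to 0.972), given as a description of arrays that share a normalization. Knockout array 6 was lowest in all 6, while the highest array was wild-type array 2 in 3 of them and wild-type array 3, wild-type array 4 or knockout array 2 in the others.

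**Figure D2:**
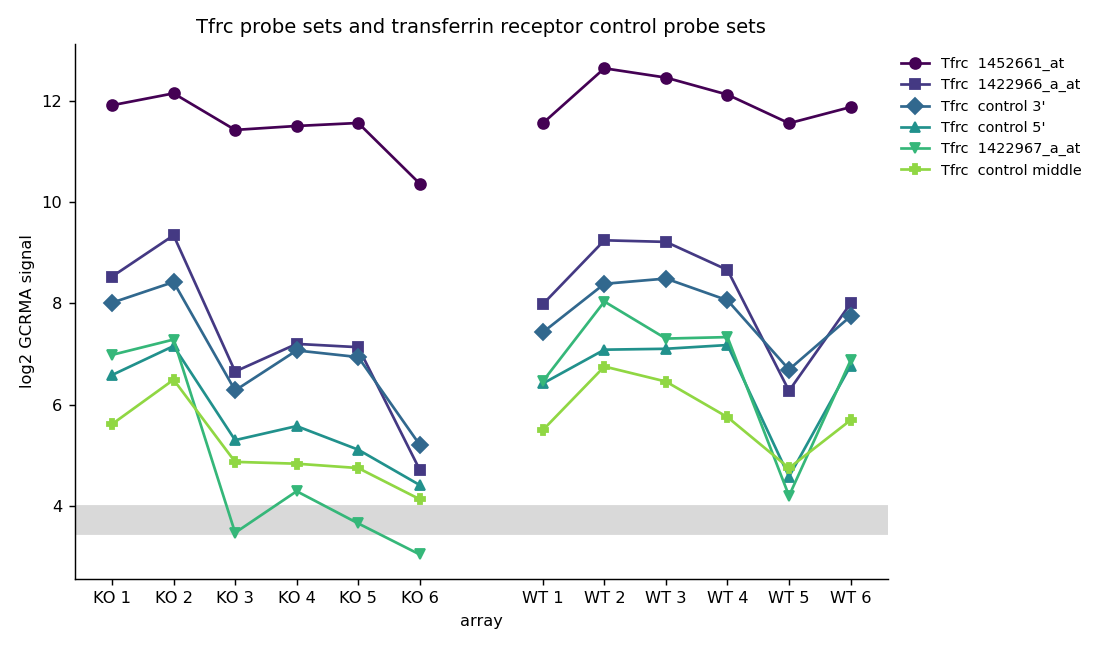
Log2 GCRMA signal (y axis) of the 3 Tfrc probe sets and the 3 transferrin receptor control probe sets on knockout arrays 1 to 6 (left) and wild-type arrays 1 to 6 (right); the grey band spans the array backgrounds, 3.45 to 4.00. Knockout array 6 is lowest in each of the 6 lines, which differ in the size of their steps, and 1422967_a_at lies at or below its array's background on 3 knockout arrays.

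Array by array, the 1452661_at signal went with the mean of the 14 measured cell division genes. Pearson's r over 12 arrays was 0.776 (permutation p = 0.00111, adjusted p = 0.00666 over 6 relations computed) and Spearman's rho was 0.762 (permutation p = 0.00525, adjusted p = 0.0158). Within the groups neither r passed 0.05, at 0.711 in the knockout (exact permutation p = 0.124) and 0.807 among wild-type arrays (exact permutation p = 0.0639). Spearman's rho was 0.943 in the knockout (exact permutation p = 0.0167) and 0.657 among wild-type arrays (exact permutation p = 0.175). Leaving out knockout arrays 3 and 6, the farthest from the median of the list mean, gave r = 0.668 (permutation p = 0.0369). Leaving out knockout array 6 alone gave r = 0.722 with an adjusted permutation p of 0.051. The list mean itself ran from 6.86 to 7.78 in the knockout and from 7.55 to 8.12 in the wild type. Its part in the Tfrc difference was not tested. Red blood cell precursors, which carry much transferrin receptor, were read through 4 measured erythroid genes: Hba-a1, an alpha-globin gene, and Klf1, an erythroid transcription factor gene, were at background on all arrays. The log2 of the list's summed level was 5.78 to 6.12 in the knockout and 5.70 to 5.91 in the wild type. Pearson's r of Tfrc with the erythroid list mean was -0.04 over 12 arrays and Spearman's rho -0.13 (permutation p = 0.880 and 0.702, adjusted p = 0.880 and 0.781). Within the groups r was -0.08 in the knockout (exact permutation p = 0.878) and 0.788 among wild-type arrays (exact permutation p = 0.0125), on a list whose wild-type means spanned 3.28 to 3.47. Without wild-type array 2 and knockout array 3 the r over the others was -0.11 (permutation p = 0.730).

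The Trf/Srprb probe set split the knockout arrays into separate clusters. It measured 8.40, 12.01, 12.19, 8.61, 8.34 and 12.22 on knockout arrays 1 to 6 and 13.36, 13.37, 12.99, 13.96, 13.38 and 11.96 on wild-type arrays 1 to 6. Knockout arrays 1, 4 and 5 lay far below every other array. Knockout arrays 2, 3 and 6 lay above wild-type array 6 and below the other 5 wild-type arrays. The mean was 10.30 ± 2.03 in the knockout and 13.17 ± 0.67 in the wild type (SD, n = 6 each), a log2 change of -2.87 (SE 0.78, 95% interval -4.57 to -1.17), which is 7.33-fold lower in the knockout. The limma p was 0.00303, rank 479 of 11313, and the adjusted p was 0.0717, so the difference did not pass the threshold.

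The Srprb probe sets of its own had log2 changes of 0.07, 0.12 and 0.09 (limma adjusted p = 0.543, 0.742 and 0.854), so signals assigned to Srprb alone did not pass the test; which transcript the shared probes read was not tested. The Trf/Srprb probe set passed with a stricter expression filter (adjusted p = 0.047), with array weights (log2 change -3.24, adjusted p = 0.028) and with the milk list mean as a covariate (-3.70, adjusted p = 0.0045), all by limma. The milk fit takes the same slope for both groups. Within the wild type, however, r with the list mean was -0.29, while knockout arrays were low in both probe set and list or high in both. With the beta-actin covariate the change was larger, -4.37, and did not pass (adjusted p = 0.0739). Leaving out 1 array at a time gave adjusted p-values of 0.061 to 0.148. Averaging knockout arrays 4 and 5, both in the low cluster, gave a change of -2.51 (limma adjusted p = 0.131).

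Transferrin is a milk protein in mice, so the probe set was set beside the milk and alveolar list. Knockout arrays 1, 4 and 5 had list means of 5.06, 4.83 and 4.64 and were low in both readings. Wild-type arrays 1, 4 and 5 had list means of 4.77, 4.76 and 4.42, in the same low range, yet Trf/Srprb values of 13.36, 13.96 and 13.38. The most abundant gene of the list, Csn3, which encodes kappa-casein, measured 5.48, 13.26, 14.07, 7.37, 6.95 and 13.77 on knockout arrays 1 to 6, against 12.78, 13.88, 11.45, 11.15, 11.48 and 13.65 on wild-type arrays 1 to 6. Its lowest 3 arrays were also knockout arrays 1, 4 and 5. Csn3 was not typical of the list: of the 9 tested genes 8 had a positive change, and Csn3 alone a negative one. Csn2 measured 2.30, 2.24 and 2.29 on knockout arrays 1, 4 and 5 and 2.25, 2.25 and 2.21 on wild-type arrays 1, 4 and 5. Elf5 measured 10.97, 9.92 and 9.87 on knockout arrays 1, 4 and 5, against 7.13 to 9.84 in the wild type. Because the arrays fall into separate clusters, no correlation over all 12 is given, nor within the knockout, where arrays 1, 4 and 5 were low in both readings and arrays 2, 3 and 6 high in both. The relation cannot be tested there, and within the 6 wild-type arrays r with the list mean was -0.29 and rho -0.54 (exact permutation p = 0.614 and 0.297). The part of milk gene content in the Trf/Srprb difference was not tested, since the covariate fit above takes the same slope for both groups.

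The Hfe probe sets were at background on all 12 arrays. They averaged 2.22 and 2.60 in the knockout and 2.24 and 2.54 in the wild type, so neither level nor difference can be read. In the fit over all probe sets their limma adjusted p-values were 0.824 and 0.538.

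**Figure D3:**
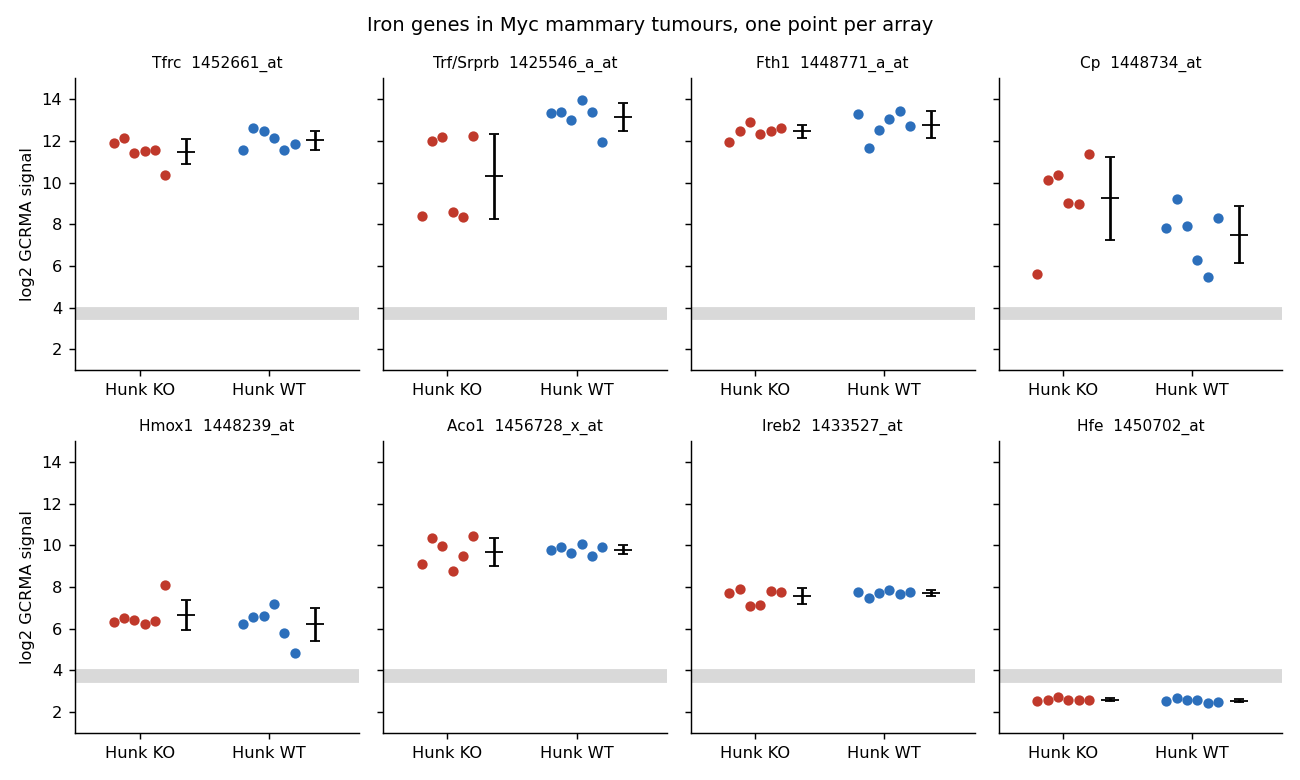
Log2 GCRMA signal (y axis) of each member gene at its probe set of highest mean, with 1 point for each of the 6 knockout (left) and 6 wild-type (right) arrays, the mean and SD as a black bar, and the range of array backgrounds in grey. The Trf/Srprb knockout points form a low group of 8.34 to 8.61 and a high group of 12.01 to 12.22, Cp has its widest spread in the knockout, and Hfe lies below background throughout.

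Fth1, the ferritin heavy chain gene of iron storage, was high in every tumour and did not differ beyond its spread. Probe set 1448771_a_at measured 11.93, 12.47, 12.92, 12.33, 12.48 and 12.63 on knockout arrays 1 to 6 and 13.29, 11.67, 12.54, 13.05, 13.46 and 12.72 on wild-type arrays 1 to 6. The knockout arrays lay inside the wild-type range. The mean was 12.46 ± 0.33 in the knockout and 12.79 ± 0.64 in the wild type (SD, n = 6 each), a log2 change of -0.33 (SE 0.27, 95% interval -0.91 to 0.26, limma adjusted p = 0.504). It was -0.55 without wild-type array 2, the lowest (limma adjusted p = 0.163), -0.19 without wild-type array 5, the highest (0.712), and -0.72 with the beta-actin covariate (0.415). The other probe set, 1427021_s_at, had a change of -0.21 (limma adjusted p = 0.685) and went with the first over the arrays at r = 0.882, a description.

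Macrophages hold much ferritin and haem oxygenase, so their genes were read too. Of 10 tested genes of the macrophage list 0 passed. Lyz2, a lysozyme gene, was the most abundant, and Fcgr1 and Marco were at background on all arrays. Of the 10 changes 8 were negative and 2 positive. C1qa, C1qb and C1qc had changes of -0.52, -0.66 and -1.03 (limma adjusted p = 0.106, 0.130 and 0.174). Cd14 had a change of 1.24 (limma adjusted p = 0.168). The list mean, used here for Fth1 and below for Hmox1, averages over both directions. The list mean was 5.85 to 6.47 in the knockout and 6.11 to 6.41 in the wild type, and the log2 of the summed level was 10.74 to 11.98 in the knockout and 10.93 to 11.78 in the wild type. Its r with Fth1 was 0.192 over 12 arrays (Spearman 0.364; permutation p = 0.546 and 0.246; adjusted p = 0.655 and 0.415), -0.17 in the knockout and 0.520 among wild-type arrays (exact permutation p = 0.717 and 0.294).

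Cp, the ferroxidase gene, averaged higher in the knockout at the 5 probe sets that varied, without passing the test. RefSeq (GRCm38.p6) lists 2 starts on the plus strand of chromosome 3. The 250 bases before the first are shown because those 5 probe sets moved together; none of the letters searched matched there, so there are no capitals.
Cp upstream, chr3:19956804-19957053: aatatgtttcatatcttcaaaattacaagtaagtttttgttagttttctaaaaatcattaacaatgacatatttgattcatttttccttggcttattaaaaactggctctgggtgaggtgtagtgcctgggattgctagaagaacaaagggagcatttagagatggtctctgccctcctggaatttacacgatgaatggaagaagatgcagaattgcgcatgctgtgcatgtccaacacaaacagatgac
Probe set 1448734_at measured 5.60, 10.11, 10.35, 9.04, 8.97 and 11.38 on knockout arrays 1 to 6 and 7.82, 9.20, 7.93, 6.26, 5.47 and 8.33 on wild-type arrays 1 to 6. Knockout arrays 2, 3 and 6 were above every wild-type array, while knockout array 1 lay below all wild-type arrays but array 5. The mean was 9.24 ± 2.00 in the knockout and 7.50 ± 1.38 in the wild type (SD, n = 6 each), a log2 change of 1.74 (SE 0.89, 95% interval -0.20 to 3.68, limma adjusted p = 0.304).

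The remaining varying Cp probe sets gave log2 changes of 1.38 to 2.39 with limma adjusted p-values of 0.282 to 0.416. The largest was at 1455393_at, which measured 3.85, 9.84, 10.46, 8.65, 8.68 and 11.17 on knockout arrays 1 to 6 and 5.77, 8.83, 7.02, 3.84, 4.97 and 7.91 on wild-type arrays 1 to 6. Knockout array 6 was highest at all 5 probe sets, and the lowest 3 arrays were knockout array 1 and wild-type arrays 4 and 5 at all 5. Their 10 pairwise correlations over the arrays ran from 0.957 to 0.995, a description. Without knockout array 1 the changes at 1448734_at and 1455393_at were 2.47 and 3.37 (limma adjusted p = 0.0754 and 0.0605). When beta-actin 3' minus 5' signal entered as a covariate, the sign turned at these 5 probe sets and at 1448735_at, with changes of -0.84 to -0.10, so the direction of the Cp difference depends on that setting. Probe set 1448735_at varied little, at 4.39 ± 0.20 in the knockout and 4.29 ± 0.07 in the wild type (SD, n = 6 each), and 1417497_at was at background on all arrays.

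Over the arrays Cp at 1448734_at went with the milk and alveolar list mean. Pearson's r was 0.782 over 12 arrays (permutation p = 0.00298, adjusted p = 0.00894 over the 6 relations) and Spearman's rho 0.790 (permutation p = 0.00321, adjusted p = 0.0158). Within the wild type r was 0.788 (exact permutation p = 0.0708) and rho 0.943 (exact permutation p = 0.0167), and within the knockout r was 0.741 (exact permutation p = 0.0625). Without knockout arrays 3 and 6, the farthest from the median of the list mean, r was 0.615 (permutation p = 0.0536), and without knockout array 6 alone it was 0.706 with an adjusted permutation p of 0.051; the relation thus rests in part on those arrays. Knockout arrays 4 and 5 had low list means with Cp at 9.04 and 8.97, while array 1, with a similar list mean, had 5.60. The knockout list means fell into separate clusters, at 4.64 to 5.06 and 9.62 to 10.46. The r over 12 arrays and within the knockout thus cannot show a graded relation. Wild-type arrays 2 and 3 also stood apart, with list means of 7.82 and 7.53 against 4.42 to 5.99 on the others. Whether the relation is graded within the wild type was not tested. With the list mean as a covariate the Cp change at 1448734_at was 0.86 (limma adjusted p = 0.510). Liver, the main source of plasma ceruloplasmin and transferrin, was read through 5 measured genes, of which Alb, Apoa1, Fgb and Ahsg were at background on all arrays; the log2 of the list's summed level was 5.09 to 5.36 in the knockout and 5.03 to 5.24 in the wild type.

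**Figure D4:**
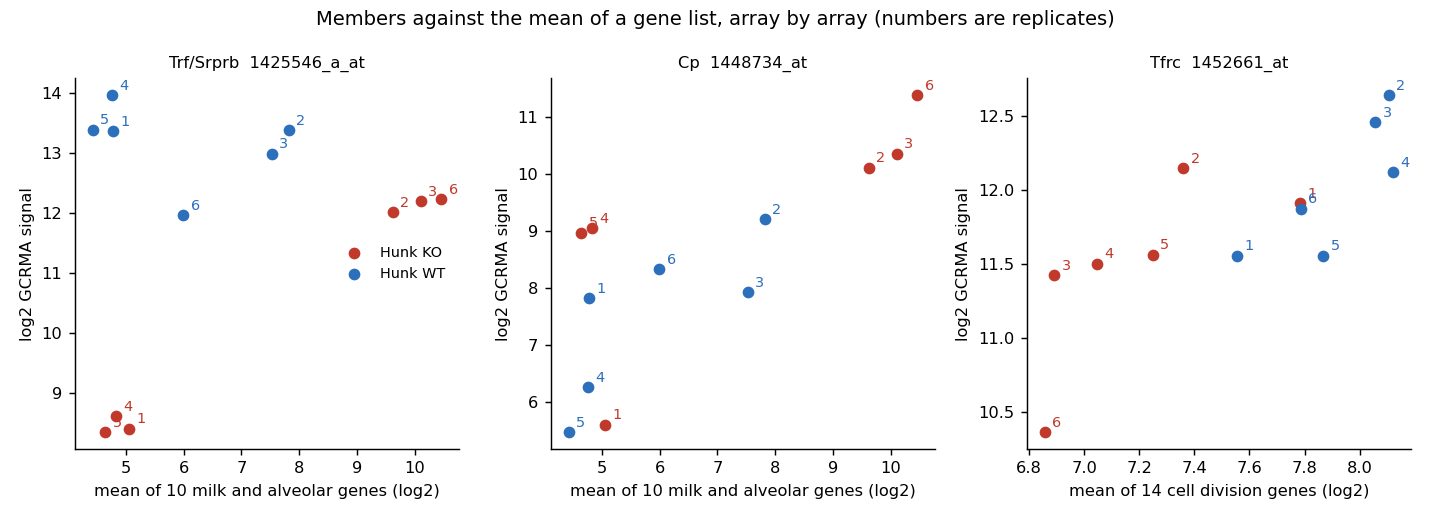
Log2 GCRMA signal of the Trf/Srprb probe set, Cp and Tfrc (y axes) against the mean log2 level of a gene list (x axes: 10 milk and alveolar genes, the same list, and 14 cell division genes) on 6 knockout (red) and 6 wild-type (blue) arrays numbered by replicate. In the first panel knockout arrays 1, 4 and 5 lie at 8.34 to 8.61 while wild-type arrays 1, 4 and 5, at similar list means, lie at 13.36 to 13.96.

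Hmox1, whose product breaks down haem, measured 6.33, 6.53, 6.41, 6.21, 6.35 and 8.11 on knockout arrays 1 to 6 and 6.22, 6.57, 6.60, 7.17, 5.82 and 4.84 on wild-type arrays 1 to 6. Knockout array 6 was the only one above the wild-type range, and the other knockout arrays lay between 6.21 and 6.53. The mean was 6.66 ± 0.72 in the knockout and 6.20 ± 0.81 in the wild type (SD, n = 6 each), a log2 change of 0.45 (SE 0.40, 95% interval -0.42 to 1.33, limma adjusted p = 0.541). The change was 0.16 without knockout array 6 (limma adjusted p = 0.813) and 0.18 without wild-type array 6 (limma adjusted p = 0.804), and 0.69 with the macrophage list mean as a covariate (limma adjusted p = 0.326). Knockout array 6 also had the highest macrophage list mean of the 12, 6.47. The r of Hmox1 with that list over 12 arrays was 0.449 (Spearman 0.343; permutation p = 0.140 and 0.277; adjusted p = 0.279 and 0.415), 0.687 in the knockout and 0.568 among wild-type arrays (exact permutation p = 0.0722 and 0.238), and 0.232 without knockout arrays 5 and 6.

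The genes of the iron regulatory proteins did not pass the test either. Ireb2, which encodes iron regulatory protein 2, measured 7.71, 7.93, 7.07, 7.13, 7.82 and 7.76 on knockout arrays 1 to 6 and 7.74, 7.45, 7.73, 7.86, 7.67 and 7.75 on wild-type arrays 1 to 6. Knockout arrays 3 and 4 lay below every wild-type array. The log2 change was -0.13 (SE 0.17, 95% interval -0.49 to 0.23, limma adjusted p = 0.680), and it was 0.13 with the beta-actin covariate. Aco1, which encodes the cytosolic aconitase that becomes iron regulatory protein 1 when it lacks its cluster, measured a lowest, median and highest value of 8.77, 9.74 and 10.46 in the knockout, against 9.48, 9.85 and 10.07 in the wild type, at probe set 1456728_x_at. Its change of -0.10 (limma adjusted p = 0.846) turned positive without knockout array 1 or 4 and with knockout arrays 4 and 5 averaged. The other Aco1 probe set, 1423644_at, had a change of 0.25 (SE 0.21, limma adjusted p = 0.522), so the probe sets differed in sign.

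The genes whose array pattern was most like that of each member were taken from 6825 tested genes, by Pearson's r of the deviations from the group means over the 12 arrays. They are a description, chosen as the highest of many, and carry no p. For Tfrc they were Rif1 (r = 0.947), Rpa2 (0.927), a subunit gene of the replication protein that coats single-stranded DNA, and Psmd6 (0.913), a proteasome subunit gene. For the Trf/Srprb probe set they were Orm1 (r = 0.940), which encodes an acute-phase glycoprotein, Glrx (0.937), a glutaredoxin gene, and Evl (0.927), a gene of actin dynamics. For Cp they were Atp6ap1 (r = 0.929), a gene of the proton-pumping ATPase, Sugp2 (0.919) and Mrps36 (0.905). For Fth1 they were Emp1 (r = 0.921), Tor4a (0.911) and Flot2 (0.906). For Aco1 they were Hsp90b1 (r = 0.932), a chaperone gene of the endoplasmic reticulum, Psapl1 (0.903) and Surf4 (0.901). For Hmox1 they were Bex1 (r = 0.861), Rbm39 (0.841) and Clec4d (0.794), and for Ireb2 they were Coq3 (0.886), Cdc42 (0.885) and Grb2 (0.885).

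Beyond the 8 members, the rest of the iron and haem pathway was read from a written list of 59 genes. Of these, 47 had a probe set of their own, 32 were tested at their probe set of highest mean and 15 lay below the filter; the other 12, among them Ftl1 and Fbxl5, were not analysed here. Ltf, Alad and Hp rose and Blvra fell in the knockout, 4 of 32 (12.5%), against 2.8% of the 6825 genes read the same way, of which 1.35% were higher and 1.45% lower in the knockout. The median log2 change was 0.12 over the 32 genes and 0.01 over the 6825. The list was chosen with earlier results of these data known, so its share of calls is not a test of the pathway.

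Hp encodes haptoglobin, which binds free haemoglobin. It measured 10.71, 10.62, 9.45, 11.70, 11.76 and 9.24 on knockout arrays 1 to 6 and 3.39, 5.56, 4.84, 4.55, 3.49 and 3.72 on wild-type arrays 1 to 6. The groups did not overlap, and the change was 6.32 (SE 0.51, limma adjusted p = 8.91e-05). Hp passed in all 12 fits without 1 array and with the beta-actin covariate (6.72, limma adjusted p = 0.00487). Liver cells are the main source of plasma haptoglobin. Of the 5 measured liver genes, Alb, Apoa1, Fgb and Ahsg were at background on all arrays. Which cells gave the Hp signal was not tested.

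Blvra, whose product biliverdin reductase acts after haem oxygenase, measured 4.61, 4.69, 4.27, 4.89, 4.92 and 4.52 on knockout arrays 1 to 6 and 6.24, 5.03, 5.73, 6.38, 6.32 and 5.59 on wild-type arrays 1 to 6. The groups did not overlap, and the change was -1.23 (SE 0.22, limma adjusted p = 0.0144), 2.35-fold lower in the knockout. It passed in all 12 fits without 1 array but not with the beta-actin covariate (-1.08, limma adjusted p = 0.143).

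Ltf, the lactoferrin gene, whose product binds iron in milk and in neutrophil granules, measured 12.77, 11.32, 12.44, 10.42, 10.33 and 11.84 on knockout arrays 1 to 6 and 2.55, 11.39, 7.96, 4.10, 5.76 and 7.14 on wild-type arrays 1 to 6. Wild-type array 2 lay inside the knockout range. The change was 5.04 (SE 1.20, limma adjusted p = 0.0484), and leaving out any 1 array other than wild-type array 2 ended the call, as did the beta-actin covariate (limma adjusted p = 0.218). Ltf was high on all knockout arrays, including arrays 1, 4 and 5 with low Csn3 and Trf/Srprb signals.

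Alad, which acts early in haem synthesis, measured 5.53, 6.07, 4.55, 5.51, 5.55 and 5.30 on knockout arrays 1 to 6 and 4.37, 4.16, 4.20, 3.98, 5.19 and 4.43 on wild-type arrays 1 to 6. The groups overlapped through knockout array 3 and wild-type array 5. The change was 1.03 (SE 0.25, limma adjusted p = 0.0495), 2.04-fold higher in the knockout, and the call held without knockout array 3 or wild-type array 5 and was lost without any other single array and with the beta-actin covariate (limma adjusted p = 0.123).

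By role, 1 of 10 tested uptake and reduction genes passed (Ltf), 0 of 3 storage genes, 0 of 2 export genes, 0 of 1 regulator, 0 of 5 mitochondrial iron genes, 1 of 7 haem synthesis genes (Alad) and 2 of 4 haem breakdown genes (Hp and Blvra). All 7 haem synthesis genes had a positive change, though that of Ppox was close to 0 and turned negative with quantile normalization or median centring. Fech, which inserts iron into haem, had a change of 0.28 (limma adjusted p = 0.230). Slc11a2, an importer of ferrous iron, had a change of 0.43 (limma adjusted p = 0.692). Slc40a1, which encodes the exporter ferroportin, lay below the filter, at background on 4 knockout and all 6 wild-type arrays. Its change was 0.80 (limma adjusted p = 0.299 in the fit over all probe sets). Knockout arrays 2 and 5 measured 4.14 and 4.32, against at most 2.71 in the wild type. Ncoa4, which directs ferritin to lysosomes, had a change of -0.16 (limma adjusted p = 0.672). Lcn2, which encodes a carrier of iron-binding siderophores, measured 10.80 to 12.85 in the knockout and 11.56 to 12.87 in the wild type, with a change of -0.51 (limma adjusted p = 0.489). Slc39a14, a metal importer, and Steap3, a ferric reductase, had changes of 0.16 and 0.26 (limma adjusted p = 0.802 and 0.560). Hpx, the gene of the haem carrier haemopexin, was at background on all arrays.

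**Figure D5:**
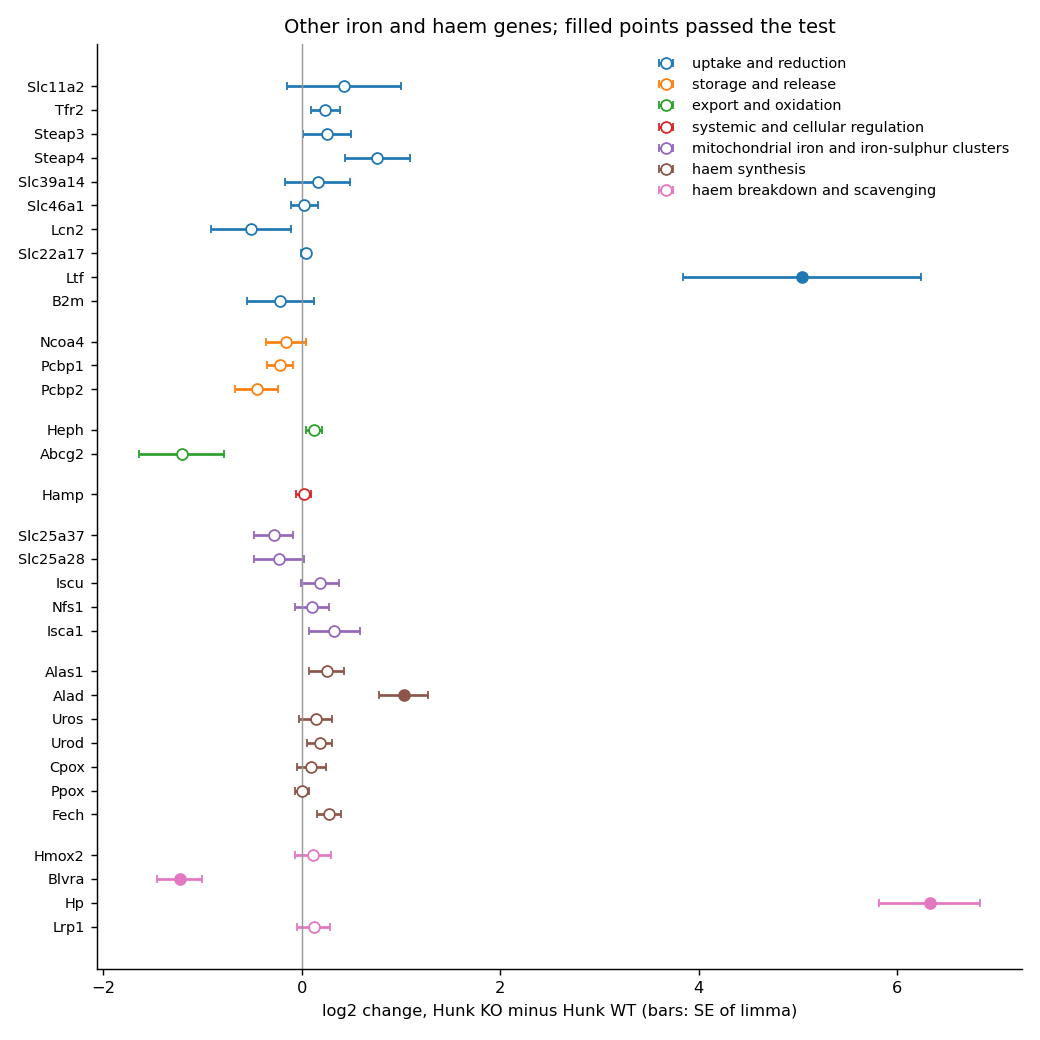
Log2 change (knockout minus wild type, x axis, bars SE of limma) of the 32 tested iron and haem genes, grouped by role; filled points passed the adjusted threshold of 0.05. Hp lies farthest to the right at 6.32, and Blvra is the filled point on the left at -1.23.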

How the data were processed

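Per the labels, total RNA was extracted with Trizol and biotinylated cRNA was hybridised to Affymetrix mouse arrays. The authors deposited log2 signals, made with GCRMA per the submitters' processing notes; versions, scan dates and other batches are not given in the sources used here. The table held 22690 probe sets on 12 arrays with 0 missing values, and 0 columns were left unused. Signals near background are uncertain after GCRMA, so the sizes of fold changes there cannot be read closely.

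The deposited values were used with no further normalization or pseudocount. Probe sets were named from the platform annotation, and RefSeq (GRCm38.p6) gave promoter sequences. That annotation gave 1 symbol to 20393 probe sets and several to 691, and did not list 1606. Probe sets with a mean above 3.98 were fitted with limma 3.58.1 (lmFit, eBayes with trend) in R 4.3.3, group as the only term, leaving out 64 control probe sets, with Benjamini-Hochberg adjustment over all 11313. The fit was tested on simulated data. Control probe sets had exact permutation tests, and relations were permuted 100000 times (exact within groups). The members and all lists, and the genes named, were chosen with earlier results of these data known. Named were all members at every probe set, and other iron genes past the threshold or set in advance by name. Also named were the 3 genes most like each member, each marker list's most abundant member, and further marker genes that show how a list's values differed. A gene was read at its probe set of highest mean. Alternatives were other filters and eBayes settings, quantile normalization, median centring, array weights, a background floor, 1 probe set per gene, 3 covariates, averaging knockout arrays 4 and 5, the replicate number as a block and leaving out each array. Figures were drawn with matplotlib 3.10.9.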

Additional observations from a re-analysis of the deposited data

Results flagged for a closer look

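Among 60 groups of 6 arrays looked at for members and named iron genes, 9 held 1 array set apart from the other 5 by Dixon's criterion, where chance flags about 1 in 20, about 3 here. Cp accounts for 3 of them: knockout array 1 measured 4.80 at 1417494_a_at (other knockout arrays 8.32 to 10.22) and 3.85 at 1455393_at (8.65 to 11.17), and knockout array 3 measured 4.80 at 1448735_at (4.27 to 4.35). Hmox1 on knockout array 6 was 8.11, against 6.21 to 6.53 on the other knockout arrays. The 5' transferrin receptor control probe set on wild-type array 5 was 4.58, against 6.42 to 7.18 on the other wild-type arrays. Alad on wild-type array 5 was 5.19, against 3.98 to 4.43. Steap3 on wild-type array 2 was 5.81, against 4.49 to 4.79. Slc39a14 on wild-type array 6 was 6.11, against 5.22 to 5.55. Slc40a1 on wild-type array 1 was 2.71, against 2.40 to 2.49, all at background.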

How the results depend on the processing

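Of 403 values of member probe sets under the alternatives, 390 kept their direction and side of the threshold, 3 passed and 10 changed sign. The count of member probe sets past the threshold was 1, the Trf/Srprb probe set, with the 75th percentile filter, array weights or the milk covariate, and 0 otherwise. The count over all probe sets was 602 with array weights, 170 with knockout arrays 4 and 5 averaged, 152 without a filter, 104 with the beta-actin covariate and 134 to 315 with 1 array left out. The count of other iron genes was 1 with the beta-actin covariate, 2 with the 75th percentile filter, the average, the macrophage covariate, median centring or no filter, and 2 to 3 with 1 array left out. With the beta-actin covariate the Cp changes were -0.49, -0.36, -0.84, -0.37, -0.10 and -0.76 (1417494_a_at, 1417495_x_at, 1417496_at, 1448734_at, 1448735_at and 1455393_at) and that of Ireb2 was 0.13. The Aco1 change at 1456728_x_at was 0.0099 with the average and -0.26 to 0.082 with 1 array left out, positive without knockout array 1 or 4. The transferrin receptor 3' minus 5' difference was -0.053 with the average and -0.087 to 0.19 with 1 array left out. The r of Tfrc with the erythroid list was 0.071 with median centring and -0.19 to 0.17 with 1 array left out. With 1 array left out, the r of Cp with the milk list was 0.71 to 0.85 and that of Tfrc with cell division was 0.72 to 0.83. The causes were not tested.

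Same-numbered arrays had correlations of -0.02 to 0.14 between their deviations, and 3 of 6 knockout arrays correlated best with their own number. Whether same-numbered arrays share anything beyond the number cannot be told from this, and the main fit used no pairing. With the replicate block 112 probe sets, 2 other iron genes and 0 members passed. GCRMA background limits Hfe, part of Tfrc 1422967_a_at and Slc40a1. With 6 arrays in each group, the intervals of Cp, Trf/Srprb and Tfrc 1422967_a_at are wide.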

Other observations

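Markers of other cell types that a mammary tumour can hold gave few values of note beside the iron genes. Of the basal and myoepithelial list 0 of 5 tested genes passed, with Acta2, smooth muscle actin, the most abundant. The fibroblast and matrix list, led by Col3a1, gave 0 of 4, and the endothelial list, led by Eng, gave 0 of 2. The adipocyte list, led by the fatty acid carrier gene Fabp4, gave 0 of 2, and the log2 of its summed level was 7.30 to 11.63 in the knockout and 6.13 to 8.47 in the wild type. In the liver list Ttr, the transthyretin gene, had the highest mean, and in the erythroid list Slc4a1, the band 3 anion exchanger gene, did. Of the antioxidant genes driven by NRF2, a factor that also drives Hmox1 and Fth1, 0 of 5 tested passed, with Txnrd1, a thioredoxin reductase gene, the most abundant.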
